A study of Homo sapiens with 18 samples.

Results

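The genes described here encode voltage-gated calcium channels, measured in SH-SY5Y, an established neuroblastoma line of human sympathetic origin that takes on neuronal features under differentiating conditions. The members were the 10 gene symbols CACNA1A, CACNA1B, CACNA1C, CACNA1D, CACNA1E, CACNA1G, CACNA1H, CACNA1I, CACNA2D1 and CACNA2D2, all of which were rows of the deposited expression table of 26372 genes. RNA-seq of rRNA-depleted total RNA was carried out on 18 libraries, 3 in each of 6 groups. The cells carried lentiviral ZNHIT3, a protein of small nucleolar ribonucleoprotein assembly, as wild type (WT), as the C14R variant or as a deletion variant, and were sampled at day 0 or day 18 of differentiation. The deletion is labelled 251-254 in replicate 1, 251-255 in replicate 2 and 251-256 in replicate 3, and these libraries were treated as 1 group. All groups were infected cells of 1 line that keep their own ZNHIT3, and no uninfected group was analysed here.

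Maintenance medium held 15% serum, and the differentiation medium was serum-free and held all-trans retinoic acid (10 μM), dibutyryl cyclic AMP (2 mM), KCl (20 mM) and the neurotrophin BDNF (50 ng/ml). These agents, the loss of serum, the time in culture and the time since infection (made 48 hours before induction) changed together between the days. Their contributions cannot be told apart. The labels do not say whether the 3 libraries of a group came from separate cultures, so p-values measure only the spread between these libraries.

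A voltage-gated calcium channel opens when the membrane is depolarised and lets calcium into the cell, where it triggers transmitter release, drives firing and signals to the nucleus. The α1 subunit forms the pore and sets the channel type. CACNA1C and CACNA1D encode L-type pores, and CACNA1B the N-type pore that supports release from sympathetic terminals. CACNA1A encodes the P/Q-type and CACNA1E the R-type pore. Most of these pores need strong depolarisation, though that of CACNA1D opens at more negative voltages. CACNA1G, CACNA1H and CACNA1I encode T-type pores, which open near rest. CACNA2D1 and CACNA2D2 encode α2δ subunits, largely extracellular proteins that raise the number of channels at the surface and bind gabapentin. Raised extracellular potassium depolarises cells, and KCl is widely used to open these channels in culture.

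The promoter windows of 3 pore genes are shown because these genes rose together with differentiation. Each window runs from 250 bases before to 50 bases after a RefSeq start on GRCh38.p14 and is printed 5′ to 3′ on the gene's strand, and capitals mark GC boxes (GGGCGG on either strand, overlapping matches included).
CACNA1B, chr9:137877532-137877831, plus strand: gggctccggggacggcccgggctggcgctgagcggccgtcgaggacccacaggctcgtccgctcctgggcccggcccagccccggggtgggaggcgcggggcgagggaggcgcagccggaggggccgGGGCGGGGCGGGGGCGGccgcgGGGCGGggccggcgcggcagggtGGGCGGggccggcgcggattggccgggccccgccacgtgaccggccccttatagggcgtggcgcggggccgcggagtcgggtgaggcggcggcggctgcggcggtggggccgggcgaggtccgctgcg
CACNA1C, chr12:2052737-2053036, plus strand: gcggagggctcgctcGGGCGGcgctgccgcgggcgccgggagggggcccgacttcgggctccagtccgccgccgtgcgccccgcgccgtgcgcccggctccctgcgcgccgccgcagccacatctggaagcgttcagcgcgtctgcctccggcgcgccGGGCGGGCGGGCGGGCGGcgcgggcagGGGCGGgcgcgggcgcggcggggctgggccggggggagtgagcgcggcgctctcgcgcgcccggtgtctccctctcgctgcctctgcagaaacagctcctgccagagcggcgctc
CACNA1E, chr1:181483267-181483566, plus strand: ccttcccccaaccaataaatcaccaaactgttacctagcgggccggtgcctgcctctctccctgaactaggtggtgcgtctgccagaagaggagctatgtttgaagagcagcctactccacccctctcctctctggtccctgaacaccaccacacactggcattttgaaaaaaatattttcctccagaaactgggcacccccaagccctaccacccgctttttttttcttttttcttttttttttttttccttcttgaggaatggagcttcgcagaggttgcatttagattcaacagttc
The windows of CACNA1B and CACNA1C held 5 and 6 GC boxes at a GC content of 85.3% and 82.3%. That of CACNA1E held 0 at 48.0%, and the other pore gene that rose, CACNA1D, held 5 at 83.0%. Over the 35116 RefSeq windows of the same length, 45.0% held a GC box and the median GC content was 58.7%. The letters of a cyclic AMP response element (TGACGTCA, present in 1.85% of windows) and of a TATA box (TATAAA, 11.5%) were searched on both strands and were in none of these 4 windows. Windows were matched for 8 of the 10 members. The windows of CACNA1C, CACNA1D and CACNA1E lie inside the gene models of GENCODE release 29, which start upstream at 1970786, 53328963 and 181317690 on their chromosomes, so other starts of these genes exist and were not examined.

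Expression is given as FPKM, a fragment count divided by transcript length and by library size. Comparisons of level between genes therefore depend on the transcript lengths used, which are not given in the sources used here. Day separated the libraries, with 86.9% of the variance of 13785 tested genes on the first principal component. C14R replicate 1 of day 18 stood apart on the second component (24.8, against -8.3 to 9.3 in the other 17 libraries). ZNHIT3 averaged 538, 424 and 303 FPKM in WT, C14R and deletion libraries at day 0, and 1153, 653 and 302 FPKM at day 18. Among markers of the line, DBH, an enzyme of noradrenaline synthesis, lay between 56.2 and 476 FPKM over the libraries of both days. TH, the enzyme that starts catecholamine synthesis, did not exceed 1.02 FPKM. Both are from a list of 12 sympathetic neuroblast markers. The sum of that list per library was 1516 to 1611 FPKM at day 0 and 2166 to 2320 FPKM at day 18. FPKM carry no counts, but steps in low values gave the depth of the libraries relative to the deepest, at least 59.3% at day 0 and at least 81.8% at day 18.

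Of the 10 members, 6 passed the filter of a mean of at least 1 FPKM over the 18 libraries, and 4 (CACNA1A, CACNA1G, CACNA1H and CACNA1I) did not. CACNA1D and CACNA1E, with means of 0.878 and 0.116 FPKM over the 9 libraries of day 0, passed only through day 18, so for these genes the filter itself favours a difference between days. With that limit, 6 of the 6 tested members were higher at day 18 in each of the 3 lines (limma adjusted p under 0.05). The share of all tested genes called higher was 38.2% in WT, 37.9% in C14R and 38.6% with the deletion. In either direction the share was 72.2%, 72.9% and 73.0%, so a call alone is common in this comparison. The median change of the 6 members in log2(FPKM + 1) was 1.28 in WT, 1.33 in C14R and 1.43 with the deletion, against 0.03, 0.02 and 0.03 over all tested genes. The share of tested genes that rose by more than a member in WT was 0.965% for CACNA1C, 1.26% for CACNA1E, 3.25% for CACNA1B, 5.76% for CACNA1D, 7.73% for CACNA2D1 and 7.85% for CACNA2D2, and for CACNA2D2 it was 12.3% in C14R and 10.3% with the deletion. With small RNA genes left out and libraries rescaled, the median of all genes in WT became 0.21 and the share of rises among called genes moved from 52.9% to 68.5%, while every member's change stayed above that median in all 3 lines.

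**Figure D1:**
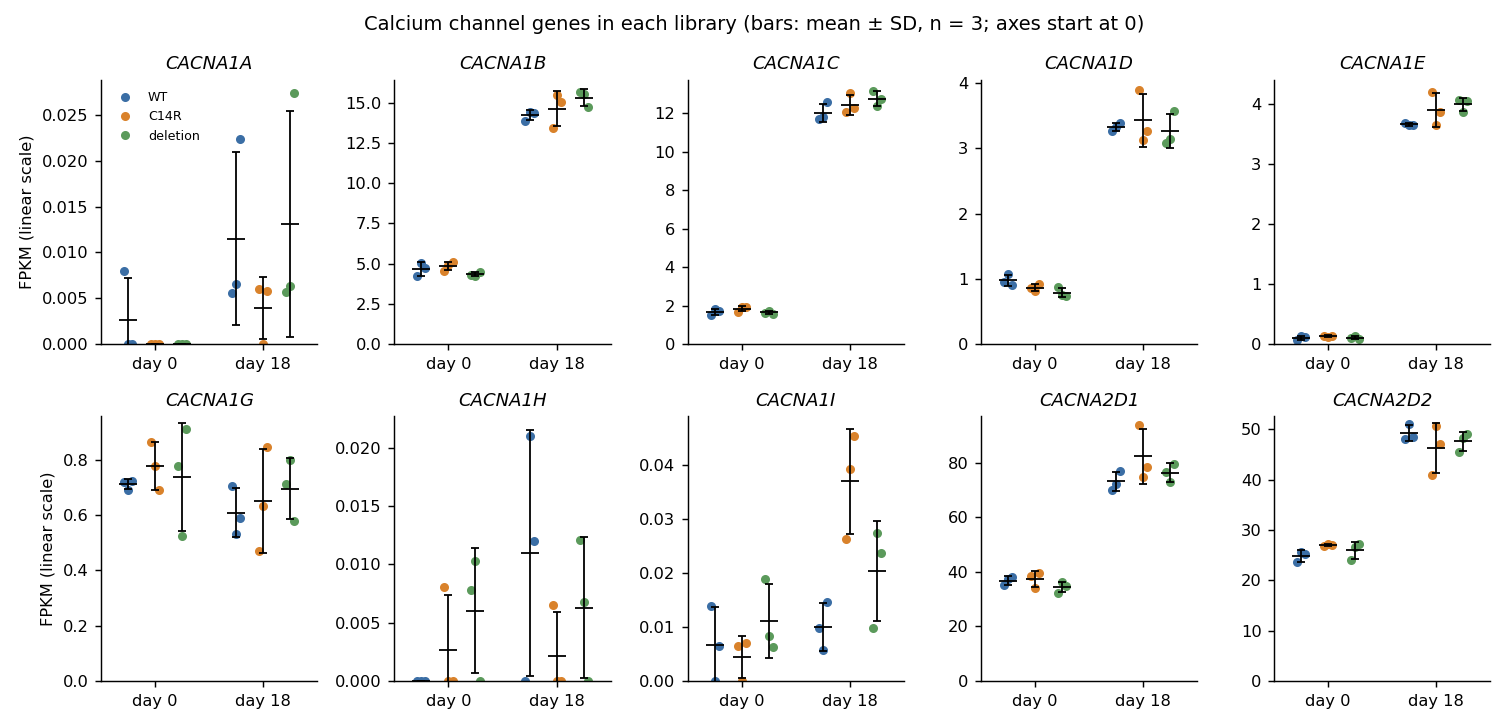
FPKM of the 10 calcium channel genes in each of the 18 libraries (points, coloured by construct) on linear axes that start at 0 and differ between panels, with the mean and SD of each group of 3. CACNA1B, CACNA1C, CACNA1D, CACNA1E, CACNA2D1 and CACNA2D2 show no overlap between the days, whereas CACNA1G overlaps and CACNA1A, CACNA1H and CACNA1I reach at most 0.0453 FPKM.

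CACNA1C, the L-type pore best known for coupling depolarisation to transcription (chromosome 12, 1970786 to 2697950, plus strand), had the largest difference in log2(FPKM + 1), although CACNA1E had the larger fold in FPKM. The WT libraries of day 0 had 1.503, 1.80 and 1.71 FPKM, and those of day 18 11.7, 11.8 and 12.5 FPKM at day 18. In C14R the values were 1.68, 1.91 and 1.94 FPKM, then 12.04, 13.0 and 12.2 FPKM, and in deletion libraries 1.64, 1.73 and 1.58 FPKM, then 13.1, 12.4 and 12.7 FPKM. The lowest day 18 library was far above the highest day 0 library in every line. Mean FPKM rose 7.18-fold in WT, 6.75-fold in C14R and 7.71-fold in deletion libraries. The log2(FPKM + 1) difference in WT was 2.28 (SE 0.06, limma adjusted p = 2.6e-15).

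CACNA1E, the R-type pore (chromosome 1, 181317690 to 181808084, plus strand), moved from a level close to absence. In WT the day 0 libraries had 0.0674, 0.135 and 0.124 FPKM and the day 18 libraries 3.69, 3.66 and 3.65 FPKM. C14R libraries had 0.144, 0.119 and 0.137 FPKM and then 4.204, 3.65 and 3.87 FPKM, and deletion libraries 0.0997, 0.135 and 0.0849 FPKM and then 4.07, 3.88 and 4.06 FPKM. The day 0 libraries of all lines lay together at or below 0.144 FPKM, and the day 18 libraries lay at or above 3.65 FPKM. Mean FPKM rose 33.7-fold in WT, 29.3-fold in C14R and 37.6-fold in deletion libraries, ratios that rest on small day 0 values. The log2(FPKM + 1) difference in WT was 2.07 (SE 0.07, limma adjusted p = 6.6e-14), and with a pseudocount of 0.1 it became 4.19, because adding 1 compresses a change from so low a level.

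CACNA1B, the N-type pore (chromosome 9, 137877789 to 138124624, plus strand), had the highest FPKM of the α1 genes on both days. Its WT values were 4.22, 5.04 and 4.75 FPKM at day 0, then 13.9, 14.4 and 14.4 FPKM at day 18. The C14R libraries had 4.56, 4.90 and 5.11 FPKM, then 13.4, 15.5 and 15.0 FPKM, and the deletion libraries 4.27, 4.25 and 4.48 FPKM, then 15.7, 15.6 and 14.7 FPKM. All day 18 libraries were above all day 0 libraries. The rise was 3.05-fold in WT, 3.01-fold in C14R and 3.53-fold in deletion libraries (log2(FPKM + 1) difference in WT 1.43, SE 0.06, limma adjusted p = 1.8e-12).

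CACNA1D, the L-type pore that opens at more negative voltages (chromosome 3, 53328963 to 53813733, plus strand), was the lower of the L-type genes. At day 0 the WT libraries had 0.956, 1.07 and 0.908 FPKM, and at day 18 3.26, 3.32 and 3.39 FPKM. In C14R it had 0.860, 0.813 and 0.929 FPKM and then 3.89, 3.13 and 3.27 FPKM, and in deletion libraries 0.869, 0.757 and 0.742 FPKM and then 3.08, 3.15 and 3.57 FPKM. The days did not overlap, and the rise was 3.40-fold in WT, 3.96-fold in C14R and 4.14-fold in deletion libraries (log2(FPKM + 1) difference in WT 1.13, SE 0.08, limma adjusted p = 9.6e-10). The use of strand is not given in the sources used here, and 6.8% of CACNA1D exon bases overlap CHDH on the other strand. Over all lines CHDH had a mean of 0.579 FPKM at day 0 and 0.467 FPKM at day 18, and its days overlapped.

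Of the T-type pores, CACNA1G (chromosome 17, 50561068 to 50627474, plus strand) was the best expressed, though under 1 FPKM in every library. In WT its day 0 values were 0.721, 0.692 and 0.724 FPKM and its day 18 values 0.704, 0.530 and 0.590 FPKM. C14R libraries had 0.866, 0.776 and 0.691 FPKM, then 0.470, 0.634 and 0.845 FPKM, and deletion libraries 0.777, 0.525 and 0.910 FPKM, then 0.711, 0.798 and 0.578 FPKM. The days overlapped in every line. Without the filter its log2(FPKM + 1) difference was -0.09 in WT (SE 0.09, limma adjusted p = 0.51), -0.11 in C14R (adjusted p = 0.39) and -0.03 in deletion libraries (adjusted p = 1), so no change was detected.

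CACNA1H and CACNA1I, the other T-type pores, and CACNA1A, the P/Q-type pore of many central synapses, were at the limit of detection. CACNA1H was above 0 in 8 of 18 libraries and never exceeded 0.0210 FPKM, and CACNA1A was above 0 in 9 libraries with a highest value of 0.0274 FPKM. Their smallest values above 0 were 0.0065 and 0.0056 FPKM, so even the highest are only a few times the smallest that was measured. Of the 9 libraries with CACNA1A above 0, 8 were at day 18, where the libraries were deeper, and the part of depth in this was not tested. For CACNA1I, the WT values were 0.0138, 0 and 0.00637 FPKM at day 0, then 0.00971, 0.00566 and 0.0146 FPKM at day 18. In C14R it had 0.00653, 0 and 0.00694 FPKM, then 0.0263, 0.0392 and 0.0453 FPKM, and in deletion libraries 0.0189, 0.0083 and 0.00622 FPKM, then 0.00981, 0.0274 and 0.0237 FPKM. Its C14R days did not overlap, and without the filter this difference of 0.05 in log2(FPKM + 1) passed the threshold (limma adjusted p = 0.00035). The C14R by day interaction for CACNA1I did not (0.04, adjusted p = 0.75), and the highest of these levels was 0.0453 FPKM.

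CACNA2D1 (chromosome 7, 81946444 to 82443798, minus strand), which encodes the α2δ subunit best known as a gabapentin target, was the most abundant member in every group. The 3 WT libraries gave 35.0, 37.3 and 38.2 FPKM at day 0, then 70.2, 72.2 and 77.2 FPKM at day 18. C14R libraries had 38.5, 34.2 and 39.6 FPKM, then 94.0, 74.8 and 78.5 FPKM, and deletion libraries 32.3, 36.2 and 34.9 FPKM, then 76.6, 72.9 and 79.7 FPKM. No day 18 library reached down to a day 0 value, and the highest value, 94.0 FPKM, was in C14R replicate 1. The rise was 1.99-fold in WT, 2.204-fold in C14R and 2.22-fold in deletion libraries (log2(FPKM + 1) difference in WT 0.97, SE 0.07, limma adjusted p = 2.7e-09). In C14R the difference was 1.11 with that library and 1.02 without it.

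CACNA2D2 (chromosome 3, 50362799 to 50504244, minus strand) followed at a lower level. In WT the levels were 23.6, 25.7 and 25.2 FPKM at day 0, then 48.1, 51.0 and 48.6 FPKM at day 18. The C14R libraries had 26.8, 27.2 and 27.0 FPKM, then 41.0, 50.7 and 47.2 FPKM, and the deletion libraries 24.0, 26.6 and 27.3 FPKM, then 45.6, 48.2 and 49.1 FPKM. The days did not overlap, and here C14R replicate 1 was the lowest day 18 library. The rise was 1.98-fold in WT, 1.71-fold in C14R and 1.83-fold in deletion libraries (log2(FPKM + 1) difference in WT 0.96, SE 0.06, limma adjusted p = 4e-10), and in C14R the difference was 0.75 with replicate 1 and 0.83 without it. CYB561D2 on the other strand overlaps 9.59% of CACNA2D2 exon bases. The WT mean of CYB561D2 was 5.70 FPKM at day 0 and 2.97 FPKM at day 18, with no overlap there or in C14R, and its days overlapped in deletion libraries.

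**Figure D2:**
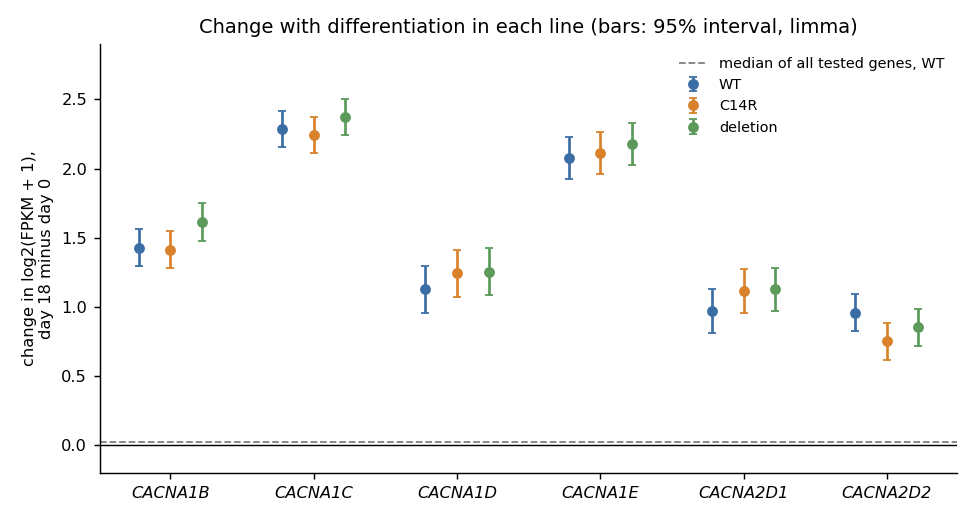
Difference in log2(FPKM + 1) between day 18 and day 0 for the 6 tested members in each line, with 95% intervals from limma and the median of all tested genes in WT (0.03, dashed). CACNA1C and CACNA1E lie above 2 in all 3 lines, CACNA1B between 1.41 and 1.61, and CACNA2D1 and CACNA2D2 between 0.75 and 1.13.

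The make-up of the pore genes was measured as each gene's percentage of the summed FPKM of the 8 α1 members, a value within a library that does not depend on scaling between libraries. It is given with no test, since the members were chosen with results known. The sum itself was 8.15 ± 0.629 FPKM (SD, n = 3) in WT at day 0 and 33.9 ± 0.687 FPKM at day 18. CACNA1B made up 57.2% ± 0.791 at day 0 and 42.0% ± 0.640 at day 18 in WT. CACNA1C made up 20.5% ± 0.376 and 35.5% ± 0.713, so the ratio of CACNA1C to CACNA1B moved from 0.358 to 0.844. In WT the N-type gene thus remained the largest single contributor in FPKM. The L-type genes together overtook it, with 32.5% ± 0.597 at day 0 and 45.3% ± 0.692 at day 18. All these shares depend on the transcript lengths used for FPKM.

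CACNA1E accounted for 1.32% ± 0.362 of the sum at day 0 in WT and 10.8% ± 0.275 at day 18. CACNA1G had the opposite course, 8.79% ± 0.856 and 1.80% ± 0.287, with a nearly constant level inside a larger sum. CACNA1D changed less in share, with 12.03% ± 0.886 and 9.82% ± 0.0210. The order of levels therefore changed at 1 point: CACNA1E stood below CACNA1D and CACNA1G at day 0 and above both at day 18 in the group means. At day 18 CACNA1E and CACNA1D did not overlap in WT and deletion libraries but did in C14R, and at day 0 CACNA1D and CACNA1G overlapped in C14R and deletion libraries but not in WT. CACNA1A, CACNA1H and CACNA1I, at the limit of detection, were not ranked among themselves.

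A similar make-up was seen in the other lines. At day 18 the L-type genes together had a higher mean share than CACNA1B in C14R (45.2%) and deletion libraries (44.4%). Their range did not overlap that of CACNA1B in C14R. In deletion libraries it did, with 43.3% to 45.6% against 41.2% to 43.5%. Over the 9 libraries of a day, CACNA1B ranged from 55.6% to 58.0% at day 0 and from 39.4% to 43.5% at day 18, and CACNA1C from 20.1% to 23.3% and from 34.5% to 36.3%. CACNA1E ranged from 0.900% to 1.82% and from 10.2% to 12.4%, and CACNA1G from 7.07% to 11.7% and from 1.38% to 2.39%. The ranges of these 4 genes did not overlap between the days. Those of CACNA1D did, with 9.51% to 12.8% at day 0 and 8.40% to 11.4% at day 18. The summed FPKM of CACNA2D1 and CACNA2D2 exceeded the summed α1 FPKM 7.59-fold ± 0.329 in WT at day 0 and 3.62-fold ± 0.0481 at day 18. The ratio of CACNA2D1 to CACNA2D2 in WT was 1.48 ± 0.0326 and 1.49 ± 0.0904, and its highest value, 2.29, was in C14R replicate 1 of day 18.

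**Figure D3:**
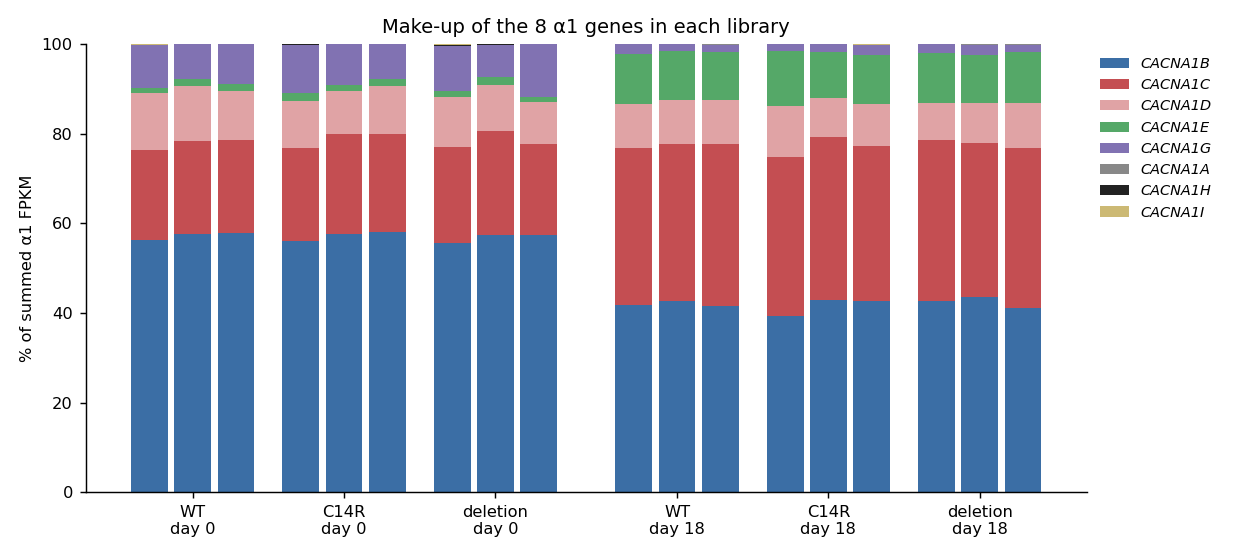
Percentage of the summed FPKM of the 8 α1 genes taken by each gene, 1 bar per library, grouped by construct and day. CACNA1B (blue) takes 55.6% to 58.0% at day 0 and 39.4% to 43.5% at day 18, with larger parts for CACNA1C (red) and CACNA1E (green) and a smaller part for CACNA1G (purple) at day 18.

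The channel genes were then compared between constructs within a day. For the 6 tested members, 36 differences were tested (each variant against WT and the variants against each other, at both days), and limma called 0 of them, with 1 at an unadjusted p under 0.05. The comparisons with WT share the WT libraries of that day. Over all genes, the share called was 0% for C14R against WT, 0.0290% for deletion against WT and 0.0580% for C14R against deletion at day 0, and 0.0363%, 0.0725% and 0.0290% at day 18. These shares depend on single libraries: C14R against WT at day 18 went from 5 genes to 126 without C14R replicate 2 of that day, and deletion against WT at day 18 from 10 genes to 51 without C14R replicate 1 of day 18, and to 2 without other libraries such as WT replicate 2 of day 18. With array weights the counts were 205 and 95, and still 0 members were called. The members' differences in log2(FPKM + 1) ran from -0.14 to 0.16, and the outer ends of their 95% intervals were -0.31 and 0.32. The size of difference that this design could call was not computed.

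The difference with an unadjusted p under 0.05 was that of CACNA2D1 in C14R against WT at day 18, 82.4 ± 10.2 against 73.2 ± 3.59 FPKM (SD, n = 3; log2 difference 0.16, 95% interval 0.01 to 0.32, limma adjusted p = 0.435). It was 0.07 without C14R replicate 1 (limma adjusted p = 0.72), so it rests on that library. CACNA1D at day 0 had its lowest mean in deletion libraries, 80.7% of WT, with all 3 below all WT libraries (log2 difference -0.14, limma adjusted p = 0.81). In deletion libraries at day 18, CACNA1B was at 107.6% and CACNA1E at 109% of WT with no overlap, with limma adjusted p of 0.59 and 0.64. CACNA2D2 in C14R at day 0 was at 108.7% of WT, also without overlap (limma adjusted p = 1).

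**Figure D4:**
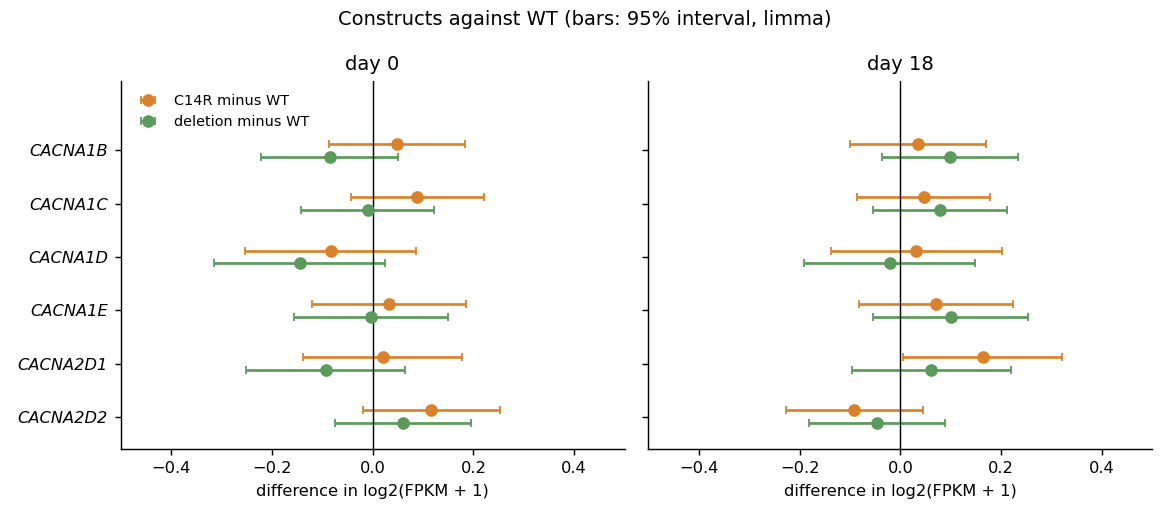
Difference in log2(FPKM + 1) between each variant and WT for the 6 tested members at day 0 (left) and day 18 (right), with 95% intervals from limma. Every interval lies between -0.31 and 0.32, and CACNA2D1 in C14R at day 18 is the 1 interval that does not include 0.

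No difference between the lines in the change with differentiation was detected. Of 12 interactions of variant and day, limma called 0, with 1 at an unadjusted p under 0.05, against 0% of all genes for C14R and 0.0145% for deletion. That interaction was CACNA2D2 in C14R, -0.21 in log2(FPKM + 1) (95% interval -0.40 to -0.02, limma adjusted p = 0.85), and it was -0.13 without C14R replicate 1 of day 18. The largest positive one was CACNA1B in deletion libraries, 0.18 (95% interval -0.01 to 0.38, limma adjusted p = 0.695).

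Other subunits of the same channels were counted from a list of 16 genes. Of these, 9 passed the filter, and 7 were higher and 0 lower at day 18 in WT, 7 and 0 in C14R, and 7 and 1 in deletion libraries (median log2(FPKM + 1) difference 0.59, 0.66 and 0.73). Of all tested genes, 38.2%, 37.9% and 38.6% were called higher in these lines and 72.2%, 72.9% and 73.0% in either direction. CACNA2D3, a further α2δ gene, showed the largest change, from 0.0392, 0.0749 and 0.0544 FPKM at day 0 to 10.1, 9.39 and 11.02 FPKM at day 18 in WT (log2 difference 3.40, SE 0.12, limma adjusted p = 4.6e-14). The C14R libraries went from at most 0.0824 FPKM to 17.2, 10.7 and 12.8 FPKM and the deletion libraries from at most 0.143 FPKM to 12.5, 12.2 and 11.3 FPKM. CACNA2D3 passed the filter only through day 18, and at that day its level was below those of CACNA2D1 and CACNA2D2 in every library.

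Among the cytoplasmic β subunits, which carry α1 to the membrane and tune its gating, CACNB1 rose from 3.38 ± 0.172 to 11.8 ± 0.457 FPKM (SD, n = 3) in WT (log2 difference 1.55, limma adjusted p = 1.7e-11). CACNB3 rose from 10.3 ± 0.563 to 20.2 ± 1.71 FPKM (0.91, limma adjusted p = 2.1e-07) and CACNB4 from 2.01 ± 0.0823 to 2.73 ± 0.248 FPKM (0.31, adjusted p = 0.0041). CACNB2 had 6.43 ± 0.315 and 5.73 ± 0.483 FPKM in WT (log2 difference -0.14, limma adjusted p = 0.083). It fell by 0.24 in deletion libraries (limma adjusted p = 0.0064) and differed by -0.04 in C14R (adjusted p = 0.65). The order of the β genes thus changed, with CACNB1 below CACNB2 at day 0 and above it at day 18 in all 18 libraries.

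Of the γ genes, several of which encode auxiliary subunits of AMPA-type glutamate receptors, CACNG7 rose from 13.6 ± 0.471 to 28.8 ± 0.552 FPKM (SD, n = 3) in WT (log2 difference 1.03, limma adjusted p = 6.3e-10). CACNG2 rose from 2.28 ± 0.323 to 3.93 ± 0.0723 FPKM (0.59, limma adjusted p = 2.5e-06) and CACNG4 from 66.1 ± 4.08 to 83.2 ± 3.70 FPKM (0.33, adjusted p = 2.2e-05). CACNG8 had 4.74 ± 0.360 and 4.84 ± 0.369 FPKM (0.03, limma adjusted p = 0.75). The skeletal muscle pore CACNA1S was above 0 in 1 of 18 libraries (0.0104 FPKM) and the retinal pore CACNA1F in 5, at up to 0.0102 FPKM.

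**Figure D5:**
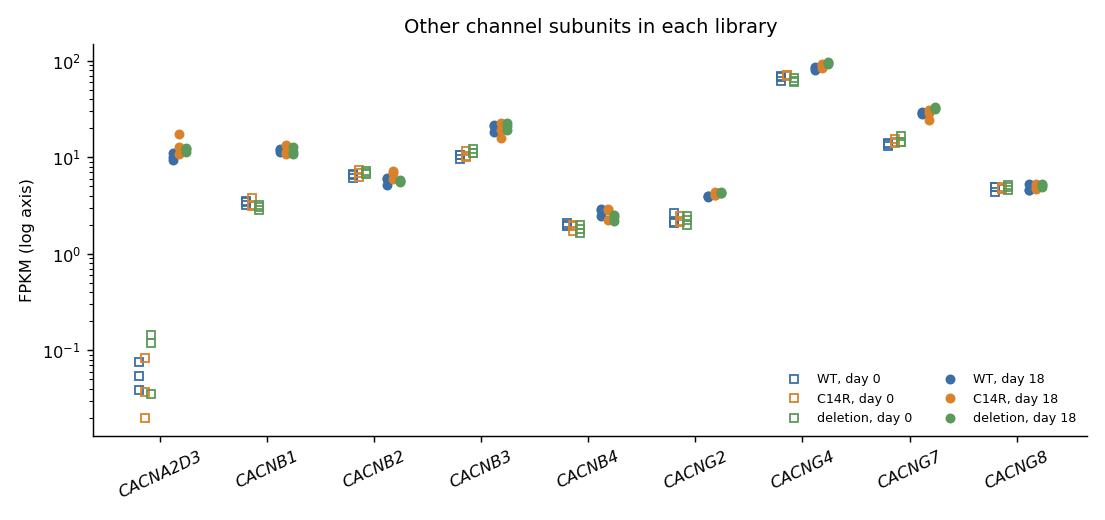
FPKM on a log axis of 9 other channel subunit genes in each library, open squares at day 0 and filled circles at day 18, coloured by construct. CACNA2D3 moves from at most 0.143 to at least 9.39 FPKM in all 3 lines, whereas CACNG8 overlaps between the days in every line and CACNB2 in WT and C14R.

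Proteins that act on the channels were examined next. In a list of 25 partners and regulators, 21 genes were tested, and in each of the 3 lines 15 were higher and 4 lower at day 18 (median log2(FPKM + 1) difference 0.73 in WT, 0.71 in C14R, 0.79 with the deletion), where 38.2%, 37.9% and 38.6% of all tested genes were called higher and 72.2%, 72.9% and 73.0% were called in either direction. Rises in WT included SNAP25, a release protein that binds N-type channels (88.2 ± 1.99 to 295 ± 3.67 FPKM, SD, n = 3; log2 difference 1.73, limma adjusted p = 4.6e-16) and STAC2, an adaptor of L-type channels (0.744 ± 0.0563 to 4.63 ± 0.272 FPKM; 1.69, adjusted p = 5e-12). The largest falls were in RRAD and GEM, small GTPases that inhibit these channels, and in STAC. RRAD had 2.73 ± 0.528 and then 0.193 ± 0.117 FPKM (SD, n = 3; log2 difference -1.64, limma adjusted p = 1.1e-08), and GEM 27.6 ± 1.75 and then 17.1 ± 0.689 FPKM (-0.66, adjusted p = 1.2e-08). RRAD passed the filter only through day 0, which favours a difference. STAC fell from 26.1 ± 0.378 to 17.1 ± 0.702 FPKM (-0.58, limma adjusted p = 1.4e-08). REM2, a related GTPase in the list, went the other way, from 0.471 ± 0.0448 to 1.48 ± 0.313 FPKM in WT. Its means went from 0.350 to 1.88 FPKM in C14R and from 0.657 to 1.84 FPKM in deletion libraries. REM2 passed the filter only through day 18, and it is named here because it differs from RRAD and GEM. STAC2 was also higher in deletion than in WT libraries at day 0 (1.48 ± 0.153 against 0.744 ± 0.0563 FPKM, log2 difference 0.51, limma adjusted p = 0.034). It was 1 of the 4 genes called in that comparison among all tested genes (0.0290%). The C14R libraries of day 0 had 1.17 ± 0.0829 FPKM, above all WT libraries but not called. At day 18 the means were 4.63, 4.805 and 5.08 FPKM in WT, C14R and deletion libraries.

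Genes for calcium pumps, exchangers and store channels went both ways. Of 19 tested from a list of 24, 10 were higher and 4 lower at day 18 in WT, 12 and 4 in C14R, and 12 and 3 in deletion libraries (medians 0.29, 0.36 and 0.38). Of all tested genes, 38.2%, 37.9% and 38.6% were called higher and 72.2%, 72.9% and 73.0% in either direction, with medians of 0.03, 0.02 and 0.03. The number called in either direction was near that background in WT. More of the called genes in the list rose than fell in all 3 lines, a split that was not tested. Over all tested genes in WT, 5260 were called higher and 4686 lower. RYR2, a release channel of the endoplasmic reticulum, rose from 1.89 ± 0.214 to 8.77 ± 0.610 FPKM (SD, n = 3) in WT (log2 difference 1.76, limma adjusted p = 3.7e-12). SLC8A2, a sodium-calcium exchanger, rose by 1.05 (limma adjusted p = 6.6e-09) and ATP2A3, a reticulum pump, by 1.25 (adjusted p = 3.5e-08), though ATP2A3, at 0.559 FPKM at day 0 in WT, passed the filter only through day 18. The inositol trisphosphate receptor gene ITPR1 fell from 11.4 ± 0.437 to 6.93 ± 0.469 FPKM (-0.65, limma adjusted p = 1.5e-08), ITPR2 fell by 0.51 (adjusted p = 4.6e-07), and the exchanger gene SLC8A3 fell by 0.54 (adjusted p = 7.5e-06).

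Calcium-dependent signalling genes also went both ways. Of 18 tested from a list of 21, 10 were higher and 4 lower in WT, 9 and 4 in C14R, and 12 and 5 in deletion libraries (medians 0.29, 0.18 and 0.27). These counts again stand beside 38.2%, 37.9% and 38.6% of all tested genes called higher and 72.2%, 72.9% and 73.0% called in either direction. In WT the kinase genes CAMK2G and CAMK2B rose by 0.98 and 0.67 in log2(FPKM + 1) (limma adjusted p = 5.9e-11 and 9.3e-06), and the calcineurin gene PPP3CC by 0.64 (adjusted p = 2.9e-06). The transcription factor genes JUNB and NFATC4 fell by 1.13 and 0.84 (limma adjusted p = 7.9e-08 and 9.4e-06), and the kinase gene CAMK2D fell by 0.58 (adjusted p = 6.8e-09). CAMK2B passed the filter only through day 18, with 0.898 FPKM at day 0 in WT.

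Cell markers moved with the channel genes. In WT, 10 of 11 tested neuronal markers were higher and 0 lower at day 18. RBFOX3, also in this list of 12 genes, was under 1 FPKM in every library and was not tested. The summed level of the list over the 9 libraries of a day went from 493 to 511 FPKM up to 1450 to 1586 FPKM. Over all 13785 tested genes in WT, 38.2% were called higher, 4686 genes were called lower, and 72.2% were called in either direction. All 8 tested markers of mesenchymal, substrate-adherent cells were lower (956 to 1153 FPKM at day 0 and 112 to 127 FPKM at day 18 summed over 10 genes), VIM and ACTA2 among them, and COL1A2 was under 1 FPKM throughout. All 8 proliferation markers were lower (summed 296 to 327 FPKM and 111 to 144 FPKM). Of 11 tested sympathetic neuroblast markers, 5 were higher and 4 lower, beside the 72.2% of all tested genes called in either direction. Of the glial markers, S100B was higher, with 5 of the 7 glial genes including GFAP and SOX10 under 1 FPKM in every library and a sum of at most 9.34 FPKM. Of 6 muscle and 5 blood and endothelial markers, 5 and 4 were under 1 FPKM throughout, and the 1 tested, of the blood and endothelial list, was lower. In bulk RNA, more cells of a type and more RNA per cell cannot be told apart, and the part of these shifts in the channel values was not tested.

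CACNA1C, the member with the largest difference in log2(FPKM + 1) in WT, was compared with all other tested genes by its pattern. Over the 6 group means of log2(FPKM + 1), the most similar genes were TRIM36 (Pearson r = 0.99998; 9.74 FPKM at day 0 and 28.1 FPKM at day 18 over all lines), TRIM2 (r = 0.99994; 34.2 and 67.0 FPKM) and NAP1L5 (r = 0.99992; 9.49 and 33.0 FPKM). Of the 13784 genes compared, 2055 had r above 0.99, because the 6 means fall into a day 0 and a day 18 cluster, so this likeness is only a description.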

How the data were processed

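RNA-seq libraries of SH-SY5Y cells in 6 groups of construct and day (3 each, from the sample titles) were analysed. The authors deposited FPKM, 1 value per gene symbol and library. The unit comes from the deposited file's name. The submitters' processing notes name TopHat2, STAR, Cufflinks 2.2.1 and hg38, with no role or order. Annotation and use of strand are not given in the sources used here. Of 26372 symbols, 4960 were at 0 in all libraries, and 0 value columns lacked a sample.

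Genes with a mean of at least 1 FPKM (13785) were tested on log2(FPKM + 1), as deposited, with limma 3.58.1 in R 4.3.3: 6 group means, all 18 libraries in 1 fit, variance trend, 11 comparisons, Benjamini-Hochberg adjustment over all tested genes in each, and a threshold of 0.05. A fold change on this scale understates changes of low genes. The model was tested on simulated data. Members under the filter were described by their values and tested only without the filter. Total depth is unknown, so no counting interval is given.

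Members and lists were chosen with earlier results of these data known. Named were all members, other subunits with a mean of at least 1 FPKM, and the 3 largest rises and falls in WT among called genes of each of 3 further lists, of which 1 is not reported here. The fit was repeated with a pseudocount of 0.1, without the filter or with a mean of at least 5 FPKM, after median-of-ratios scaling, quantile normalization or removal of 2387 small RNA genes, with a replicate block, without the trend, with array weights, with a minimum log2 change of 1, on the compared libraries alone, and leaving out each of the 18 libraries. Gene positions come from GENCODE release 29 (GRCh38), and promoter windows from RefSeq (GRCh38.p14).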

Additional observations from a re-analysis of the deposited data

How the results depend on the processing

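The 6 rises with differentiation kept their direction in all 3 lines under every alternative that could test them, and their side of the threshold under all of these but a minimum log2 change of 1, with a largest limma adjusted p of 4.6e-05. The lowest and highest log2 differences in WT were 1.37 and 1.61 for CACNA1B, 2.23 and 2.78 for CACNA1C, 1.04 and 1.67 for CACNA1D, 2.02 and 4.19 for CACNA1E, 0.92 and 1.18 for CACNA2D1, and 0.91 and 1.16 for CACNA2D2, with the pseudocount of 0.1 giving the highest value for CACNA1C, CACNA1D and CACNA1E and the rescaling without small RNA genes for the others. A mean of at least 5 FPKM left out CACNA1D and CACNA1E, and 4 of the 4 remaining members were called in each line. A log2 change of at least 1 was met by 4 members in WT and by 5 in each variant line. CACNA2D1 (0.97) and CACNA2D2 (0.96) in WT, and CACNA2D2 in C14R (0.75) and deletion libraries (0.85), fell short of it. This limit left 1938 genes called in WT, 1917 in C14R and 1985 with the deletion, against 9946, 10044 and 10060. Counts of all genes between constructs also moved by more than 1.5 times under several settings, from 5 to between 1 and 205 for C14R against WT at day 18, from 10 to between 2 and 95 for deletion against WT at day 18 and from 8 to between 1 and 95 for C14R against deletion at day 0, with array weights highest in each. No alternative called a construct difference or an interaction of the 6 tested members (smallest limma adjusted p 0.17, for CACNA2D1 in C14R against WT at day 18 without C14R replicate 2). With the replicate number as a block, 6 members were called in each line and 9932 genes in WT against 9946, and no member's call changed. Same-numbered libraries of different groups did not deviate together (correlations of -0.36 to 0.17 over 27 pairs, median -0.04), so the numbers were not taken to pair the samples. The recomputed values comprised calls of single members, counts of called members (unchanged if within 1.5 times) and α1 shares (unchanged if within the group's SD). Of all these, 2442 were unchanged. A share with 1 library left out could hardly leave the SD, so this total is no measure of robustness. Among the calls of members, 4, named above, were lost and 1 was gained, CACNA1I in C14R without the filter (0.05, limma adjusted p = 0.00035). Depth limits CACNA1A, CACNA1H and CACNA1I, whose highest values were 0.0274, 0.0210 and 0.0453 FPKM. The number of fragments behind these values is unknown.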

Other observations

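Noncoding RNAs that lie in channel genes were chosen after their values had been seen and are given as values only. CACNA1C-AS1, on the strand opposite to CACNA1C and overlapping 564 of its exon bases, had a mean of 0.128 FPKM over the 9 libraries of day 0 and 0.859 FPKM over those of day 18. Its days did not overlap in any line, and the mean was 6.72-fold higher at day 18, beside 7.20-fold for CACNA1C itself. CACNA1C-AS4, with 0 overlapping exon bases, had means of 0.109 and 0.886 FPKM, and its days overlapped in deletion libraries but not in WT or C14R. With the use of strand not given in the sources used here, reads of CACNA1C and CACNA1C-AS1 cannot be told apart where they overlap. CACNA2D3-AS1, which overlaps 122 exon bases of CACNA2D3, was listed at 0 in all 9 libraries of day 0 and lay between 0.213 and 0.644 FPKM at day 18. CACNA1G-AS1 had means of 0.251 and 0.208 FPKM, and, as for CACNA1G, the days overlapped.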
